A study of Mus musculus with 4 samples.

Results

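The genes described here are 10 genes of the outer epithelium of the heart, taken by name from the 30268 genes of the count table: the keratins Krt7, Krt8, Krt18 and Krt19, the uroplakins Upk3b and Upk1b, and the surface genes Msln, Lrrn4, Muc16 and Gpm6a. Their levels were read in epicardial-like cells and in cells carrying the fibroblast genes Tcf21, Col1a1, Dpp4 and Mfap5, by stage and genotype. Embryonic mouse hearts were profiled by Drop-seq, a droplet method in which bead-borne barcodes mark the cell and a unique molecular identifier (UMI) marks each captured transcript, read close to its 3′ end. There was 1 library for each genotype and stage: Lats1/2 CKO (conditional knockout) E13.5, control E13.5, Lats1/2 CKO E14.5 and control E14.5. Lats1/2 CKO embryos were Wt1 CreERT2/+; Lats1/2 F/F; Rosa26mTmG/+, and control embryos were Wt1 CreERT2/+; Rosa26mTmG/+, so both carried the Cre gene at the Wt1 locus and the mTmG reporter. Wt1 is itself a gene of the epicardium, CreERT2 acts only after tamoxifen, and the reporter makes membrane EGFP after recombination. The sources used here do not give tamoxifen timing or the number of embryos per library.

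The epicardium is a mesothelium, a flat epithelium that covers the heart and sends cells into the muscle wall by epithelial-mesenchymal transition, where many become fibroblasts. Keratins are filament proteins of epithelia and assemble as pairs of a type I chain (Krt18, Krt19) and a type II chain (Krt7, Krt8). Uroplakins and the other surface genes encode membrane proteins that mesothelia share with other lining epithelia. Lats1 and Lats2 encode Hippo pathway kinases that restrain the transcriptional coactivators YAP and TAZ, whose DNA-binding partners are the TEAD factors.

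After filtering, the libraries held 4471 to 5915 cells, with median depths of 2015 UMIs (Lats1/2 CKO E13.5), 1589 (control E13.5), 1035 (Lats1/2 CKO E14.5) and 955 (control E14.5). Cells were clustered without the 10 genes and clusters were named from other markers. Epicardial-like cells numbered 223, 113, 219 and 91 in Lats1/2 CKO E13.5, control E13.5, Lats1/2 CKO E14.5 and control E14.5, and all 10 epicardial naming markers were detected in each. Fibroblast-like cells numbered 441, 307, 387 and 481 in the same order of libraries. Fibroblast markers were all detected in both classes, 12 of 12 in each library, and summed to 18546 and 19407 CPM in epicardial-like cells of Lats1/2 CKO E13.5 and E14.5, against 20182 and 29480 CPM in controls, and to 15087 to 18372 CPM in fibroblast-like cells. CPM is the UMIs of a gene among all UMIs of the class, scaled to a common total. Epicardial markers summed to 1823 to 2123 CPM in epicardial-like cells and to 266 to 490 CPM in fibroblast-like cells, where 5 to 10 of 10 were detected. Fibroblast-like cells of E13.5 lay mostly in a cluster led by Slc38a5 and Tcf21, and those of E14.5 mostly in a cluster led by Spon2, Lsp1 and Col14a1. Summed erythroid markers in epicardial-like cells stood at 4426 and 2310 CPM in Lats1/2 CKO E13.5 and E14.5, against 332 and 2695 CPM in control E13.5 and E14.5. Summed cardiomyocyte markers stood at 4119 and 6426 CPM in Lats1/2 CKO and at 3552 and 5037 CPM in controls. The part of free RNA from other cells in the results was not tested. Between 6 and 8 cell barcodes of a library also occurred in another library.

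The targeted genes were low in every library. In epicardial-like cells Lats1 stood at 18.2 and 21.2 CPM in Lats1/2 CKO E13.5 and E14.5, against 24.1 and 44.7 CPM in controls, on 8 to 14 UMIs a library. Lats2 stood at 31.3 and 48.2 CPM in Lats1/2 CKO, against 67.0 and 83.9 CPM in controls, on 15 to 25 UMIs a library. Both genes were lower in Lats1/2 CKO at each stage, but the tags may lie outside the deleted part, so this is a limited check of the labels. Of the reporter transcripts Egfp differed more and stood at 635 and 584 CPM in Lats1/2 CKO epicardial-like cells and at 88.5 and 39.1 CPM in control ones. Tdtomato, the transcript lost on recombination, had 10 and 4 UMIs in Lats1/2 CKO and 7 and 2 in controls. Creert2, which both genotypes carry, stood at 91.2 and 57.8 CPM in Lats1/2 CKO, against 40.2 and 5.59 CPM in controls.

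Upstream sequences of 3 genes are shown, for the pair of adjacent keratin genes of which only Krt8 differed at both stages and for Upk3b, the most abundant of the 10. Krt7, Krt8 and Krt18 lie on mouse chromosome 15, and 23697 bases separate Krt8 from Krt18. Krt19 lies on chromosome 11, Upk3b on 5, Upk1b on 16, Msln on 17, Lrrn4 on 2, Muc16 on 9 and Gpm6a on 8. The sequences end at the base before the GENCODE gene, are credited to RefSeq (GRCm38.p6) and run 5′ to 3′ on the strand of each gene. They span chr15:102004483-102004592 (minus strand, Krt8), chr15:102027966-102028179 (plus strand, Krt18) and chr5:136038246-136038495 (plus strand, Upk3b), and capitals mark the TEAD core GGAATG on either strand.
Krt8: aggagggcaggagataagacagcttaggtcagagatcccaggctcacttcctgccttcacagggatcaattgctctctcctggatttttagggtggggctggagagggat
Krt18: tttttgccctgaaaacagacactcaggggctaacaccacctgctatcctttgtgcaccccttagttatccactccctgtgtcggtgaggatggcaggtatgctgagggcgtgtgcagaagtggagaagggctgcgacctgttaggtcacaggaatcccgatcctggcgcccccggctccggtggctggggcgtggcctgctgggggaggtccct
Upk3b: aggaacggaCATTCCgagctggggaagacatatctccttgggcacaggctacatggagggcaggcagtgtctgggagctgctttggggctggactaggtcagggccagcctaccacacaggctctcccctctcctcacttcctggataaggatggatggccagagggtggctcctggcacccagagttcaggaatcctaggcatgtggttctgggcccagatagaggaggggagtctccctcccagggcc
RefSeq upstream windows were at hand for 7 of the 10 genes. In the 250 bases before the RefSeq start, GGAATG was found once each for Upk3b (241 bases before the start), Lrrn4 (196) and the upstream Gpm6a start (125). It was not found for Krt7, Krt8, Krt18 or Muc16, and 12.6% of all 32851 promoter windows held it. The AP-1 motif TGANTCA (6.75% of windows) was in none of the 7, and TATAAA (12.4%) was found at the other Gpm6a start only. No match says only that these letters are not in this window.

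In epicardial-like cells the sum of the 10 members was nearly the same in each library. It came to 5635 CPM in Lats1/2 CKO E13.5 and 5468 CPM in control E13.5, and to 5754 CPM in Lats1/2 CKO E14.5 and 5401 CPM in control E14.5. Set against control, Lats1/2 CKO had a log2 ratio of 0.04 for E13.5 (95% counting interval -0.03 to 0.12) and one of 0.09 for E14.5 (-0.01 to 0.20). Here and throughout, such intervals are exact conditional binomial intervals and cover counting error only, since each genotype had 1 library at each stage. Single cells weighed on the E14.5 value: without the cell with most member UMIs in each library it was 0.22 (0.11 to 0.33). That cell held 203 member UMIs of 63274 UMIs in Lats1/2 CKO E14.5 and 87 of 10831 in control E14.5.

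The 10 genes differed widely in level. Tags near the 3′ end carry no factor of transcript length, so CPM levels are set side by side below. Upk3b was the highest in all 4 libraries at 2050 to 2571 CPM, above the range of each other gene. Msln followed at 579 to 1069 CPM. Krt19 (257 to 588 CPM), Upk1b (369 to 550), Gpm6a (347 to 501), Krt7 (319 to 470), Lrrn4 (275 to 464) and Krt18 (190 to 322) came next, and neighbours in that order overlapped over the 4 libraries. Krt8 (22.4 to 158 CPM) and Muc16 (11.7 to 33.5 CPM) were the lowest, and their ranges overlapped too.

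**Figure D1:**
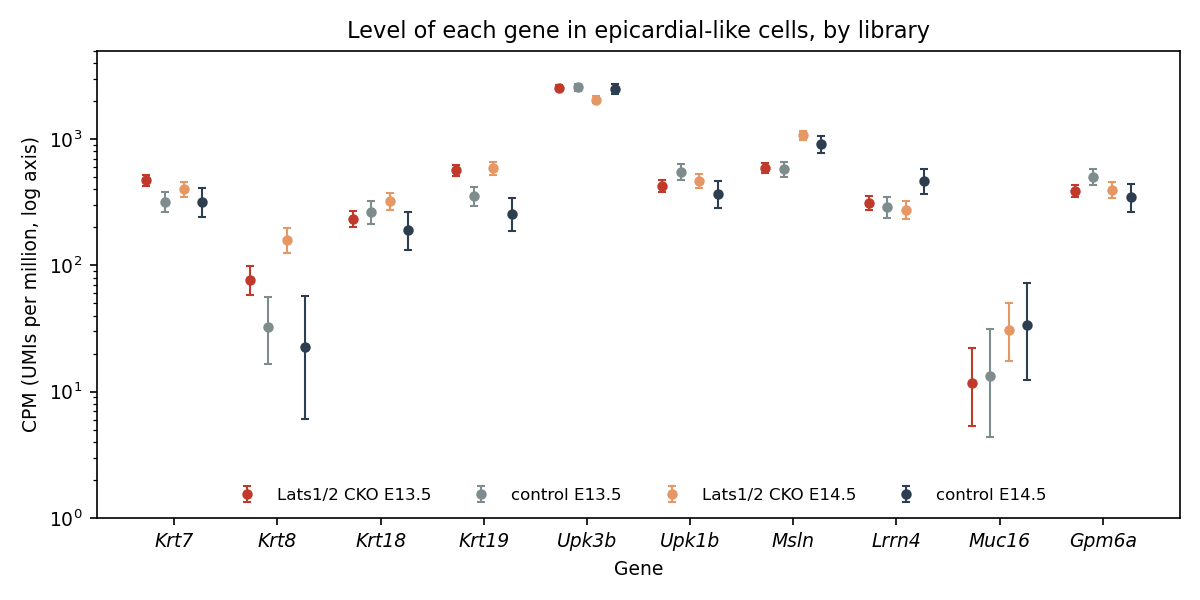
Level of each of the 10 genes in epicardial-like cells in CPM on a log axis; each point is 1 library and bars are exact Poisson 95% intervals of the count. Upk3b lies between 2050 and 2571 CPM in all 4 libraries, and Krt8 and Krt19 are higher in the Lats1/2 CKO library than in the control library at both stages.

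Among the keratins, Krt8 and Krt19 were higher in Lats1/2 CKO epicardial-like cells at both stages, while Krt18 was not. Krt8, a type II chain of simple epithelia, had 59 and 82 UMIs in Lats1/2 CKO E13.5 and E14.5, against 12 and 4 UMIs in control E13.5 and E14.5. This came to 76.8 and 158 CPM in Lats1/2 CKO and to 32.2 and 22.4 CPM in controls. Both Lats1/2 CKO libraries lay above both controls, and how many of all genes separate in this way was not counted. The log2 ratio of Krt8 was 1.21 (0.35 to 2.29) for E13.5, then 2.66 (1.41 to 4.73) for E14.5.

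Krt19, a small type I chain, stood at 566 and 588 CPM in Lats1/2 CKO E13.5 and E14.5, against 354 and 257 CPM in the controls of the same stages. Its log2 ratios were 0.68 (0.39 to 0.97) and 1.18 (0.74 to 1.67). Krt7, the other type II chain, stood at 470 and 399 CPM in Lats1/2 CKO and at 319 CPM in each control. The counting interval of its log2 ratio held only positive values at E13.5 (0.56, 0.26 to 0.87) but held 0 at E14.5 (0.31, -0.11 to 0.77).

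Krt18, the usual partner of Krt8, stood at 234 and 322 CPM in Lats1/2 CKO E13.5 and E14.5, against 263 and 190 CPM in controls. The groups overlapped, with log2 ratios of -0.17 (-0.53 to 0.21) for E13.5, then 0.74 (0.22 to 1.34) for E14.5. Krt8 and Krt18 have related copies in the genome, and how shared reads were assigned is not given in the sources used here. Gm671 (antisense) overlaps Krt7 and Gm36026 overlaps Krt8 in the GENCODE annotation of GRCm38, so their tags could be shared where strand was not used.

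The uroplakins showed no direction common to both stages. Upk3b, a membrane glycoprotein gene widely used as a mesothelial marker, stood at 2556 and 2050 CPM in Lats1/2 CKO E13.5 and E14.5, against 2571 and 2494 CPM in controls. Its log2 ratio was -0.01 (-0.12 to 0.10) for E13.5, then -0.28 (-0.44 to -0.12) for E14.5. Upk1b, a tetraspanin, stood at 425 and 466 CPM in Lats1/2 CKO, against 550 and 369 CPM in controls. The 2 stages lay on opposite sides of 0, at -0.37 (-0.63 to -0.11) and 0.33 (-0.06 to 0.75).

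Msln encodes mesothelin, a lipid-anchored surface protein, and Muc16 the large mucin it binds. Msln stood at 591 and 1069 CPM in Lats1/2 CKO E13.5 and E14.5, against 579 and 906 CPM in controls. Its genotype ratios were 0.03 (-0.21 to 0.27) and 0.24 (-0.02 to 0.50), whereas both E14.5 libraries lay above both E13.5 libraries. Muc16 had 9 and 16 UMIs in Lats1/2 CKO and 5 and 6 in controls, and its log2 intervals ran from -1.93 to 1.73 and from -1.55 to 1.52, so a difference was not detectable at this depth.

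Lrrn4, a leucine-rich repeat membrane protein gene, stood at 314 and 275 CPM in Lats1/2 CKO E13.5 and E14.5, against 287 and 464 CPM in controls. Its log2 ratio was 0.13 (-0.20 to 0.47) for E13.5, then -0.76 (-1.15 to -0.34) for E14.5. Gpm6a, a proteolipid-family glycoprotein gene best known from neurons, stood at 389 and 397 CPM in Lats1/2 CKO and at 501 and 347 CPM in controls. The ratios were -0.37 (-0.63 to -0.09) and 0.19 (-0.22 to 0.63), so its groups overlapped.

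**Figure D2:**
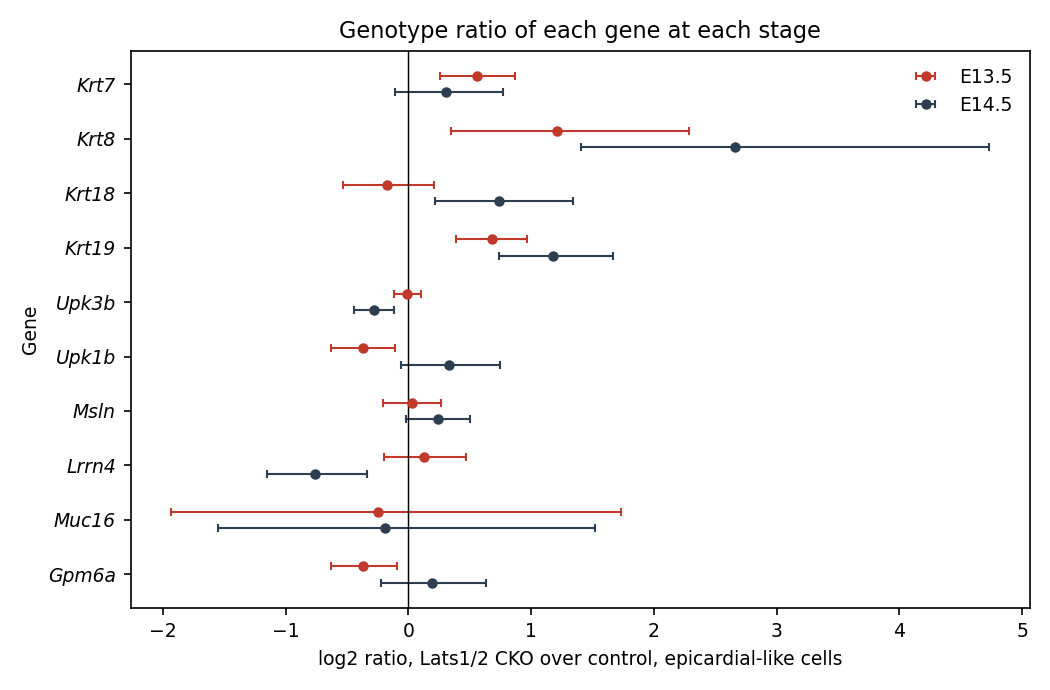
Log2 ratio of Lats1/2 CKO over control for each gene in epicardial-like cells at E13.5 and E14.5; points are ratios of summed counts and bars are exact 95% counting intervals. Krt8 (1.21 and 2.66) and Krt19 (0.68 and 1.18) are the 2 genes whose bars stay above 0 at both stages.

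The genotype effect over both stages was tested with edgeR's quasi-likelihood test with stage as an additive term, which leaves 1 residual degree of freedom. Of 7518 genes tested in epicardial-like cells 14 passed at an adjusted p of 0.05 (0.186%), 7 higher and 7 lower in Lats1/2 CKO. Among the higher ones were the reporter Egfp (log2 3.2) and Rps13-ps1 (5.92), both also called higher in fibroblast-like cells (2.04 and 8.22). Differences between libraries cannot be told apart from genotype here. None of the 10 genes passed; 2 had an unadjusted p under 0.05, a level reached by 8.18% of the genes tested. These were Krt8 (log2 1.87, SE 0.431, adjusted p = 0.113 in edgeR) and Krt19 (0.92, SE 0.233, adjusted p = 0.154). Krt7 followed at 0.46 (SE 0.228, adjusted p = 0.645 in edgeR). The median over the 10 genes was 0.05, against 0.01 over all genes tested. DESeq2 called 10 genes and 0 of the 10 described here, with the same number, 2, under an unadjusted 0.05. Without a filter on low counts edgeR called 96 genes, Krt8 (adjusted p = 0.00302) and Krt19 (adjusted p = 0.0127) among them. Counting intervals lay above 0 at both stages for Krt8 and Krt19, as they did for 1.61% of genes tested, and below 0 at both stages for 0 of the 10, against 1.65%.

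In the same fit the stage effect, E14.5 minus E13.5, passed for 90 of 7518 genes (1.20%), and for 0 of the 10. Of the 90 genes 85 were higher at E14.5, led by the ribosomal protein genes Rpl23a (log2 7.36), Rps12 (6.23) and Rpl17 (5.76). At an unadjusted p under 0.05, which 8.69% of genes reached, stood 1 of the 10. This was Msln, with a log2 difference of 0.84 (SE 0.200, adjusted p = 0.0559 in edgeR). It passed with RLE size factors (0.85, adjusted p = 0.0381) and without the filter on low counts (0.77, adjusted p = 0.0476). Muc16 had a difference of 1.43 (SE 0.701) and Krt8 of 0.77 (SE 0.399), with adjusted p of 0.604 and 0.650 in edgeR. The other 7 genes lay between -0.14 and 0.31. The deposited cells held at least 500 genes each in the E13.5 libraries and at least 300 in the E14.5 libraries. Stage cannot be told apart from library run, depth, counting or this difference in the deposited cells.

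Of 24 other keratins, 17 were in the table and 9 had a UMI in epicardial-like cells. Krt14, a type I keratin of stratified epithelia, was the most frequent of these, with 58 and 27 UMIs in Lats1/2 CKO E13.5 and E14.5, against 9 and 2 in controls. Its level was 75.5 and 52.0 CPM in Lats1/2 CKO and 24.1 and 11.2 CPM in controls, and it did not pass in edgeR (log2 1.81, SE 0.497, adjusted p = 0.207). Krt10 stood at 37.8 and 28.9 CPM in Lats1/2 CKO and at 61.7 and 50.3 CPM in controls (log2 -0.73, SE 0.443, adjusted p = 0.721 in edgeR).

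Among 18 other uroplakin and mesothelial genes 9 were tested and 0 passed, with a median log2 value of -0.36. The list held Rspo1, a WNT agonist (117 and 185 CPM in Lats1/2 CKO, against 190 and 229 CPM in controls), and Bnc1, a transcription factor gene (126 and 118 CPM, against 142 and 201 CPM). Efemp1, a matrix gene, stood at 329 and 493 CPM in Lats1/2 CKO and at 281 and 280 CPM in controls. Of 39 junction and polarity genes 21 were tested and 0 passed (median -0.17). Tjp1, which encodes a tight-junction scaffold, stood at 61.2 and 42.4 CPM in Lats1/2 CKO and at 69.7 and 95.0 CPM in controls. Several genes of these lists also served to cluster and name the cells.

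Of 22 fibroblast genes 18 were tested in epicardial-like cells, with 2 called lower in Lats1/2 CKO, 0 called higher and a median of -0.24. Dcn, the small matrix proteoglycan decorin, stood at 1966 and 2042 CPM in Lats1/2 CKO E13.5 and E14.5, against 3536 and 3690 CPM in controls (log2 -0.84, SE 0.157, adjusted p = 0.0386 in edgeR). Fbln2, which encodes the matrix protein fibulin-2, stood at 789 and 784 CPM in Lats1/2 CKO, against 1855 and 1565 CPM in controls (log2 -1.11, SE 0.186, adjusted p = 0.0152). Of 22 genes of epithelial-mesenchymal transition 17 were tested and 0 passed (median -0.08). Cdh11, a mesenchymal cadherin gene, stood at 964 and 665 CPM in Lats1/2 CKO and at 1659 and 1001 CPM in controls (log2 -0.68, SE 0.189, adjusted p = 0.207 in edgeR). Acta2, a smooth muscle actin gene, pointed the other way, with 173 and 164 CPM in Lats1/2 CKO and 45.6 and 117 CPM in controls (log2 1.22, SE 0.351, adjusted p = 0.250 in edgeR).

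In fibroblast-like cells the 10 genes were close to absent. Their sum stood at 40.1 CPM in Lats1/2 CKO E13.5 and 93.9 CPM in control E13.5, and at 103 CPM in Lats1/2 CKO E14.5 and 34.7 CPM in control E14.5, on 52, 74, 56 and 24 UMIs. As a share of the epicardial-like level these sums were 0.711% in Lats1/2 CKO E13.5, 1.72% in control E13.5, 1.78% in Lats1/2 CKO E14.5 and 0.643% in control E14.5. The log2 ratio of epicardial-like over fibroblast-like cells was 7.12 (6.74 to 7.56), 5.85 (5.53 to 6.22), 5.80 (5.43 to 6.22) and 7.25 (6.70 to 7.93), in the same order of libraries. Muc16 had 0 UMIs in fibroblast-like cells of all 4 libraries, which allows up to 2.31 to 5.49 CPM. Krt8 had 1 UMI in control E13.5 and 0 in the other 3 libraries.

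The most UMIs over the 4 libraries came from Upk3b and Krt19. Upk3b had 12 and 16 UMIs in fibroblast-like cells of Lats1/2 CKO E13.5 and E14.5, against 40 and 6 in controls. Krt19 had 13 and 14 UMIs in Lats1/2 CKO, against 6 and 5 in controls. Krt7, Krt18, Upk1b, Msln, Lrrn4 and Gpm6a each had at most 9 UMIs in a library.

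The genotype ratio of the sum in fibroblast-like cells turned with the stage and, at E13.5, rested on 1 cell. Its log2 value was -1.22 (-1.77 to -0.70) for E13.5, then 1.55 (0.85 to 2.32) for E14.5. In control E13.5 a single cell of 28844 UMIs, the deepest of its class in that library, held 42 of the 74 member UMIs and 7 of the 10 genes. Cardiomyocyte markers summed to 1562 and 4810 CPM in fibroblast-like cells of Lats1/2 CKO E13.5 and E14.5, against 1116 and 6152 CPM in controls, and their part in the ratio was not tested. Without the cell with most member UMIs in each library the ratio was -0.25 (-0.93 to 0.45) for E13.5, then 1.40 (0.65 to 2.22) for E14.5. Without the 2 such cells it was 0.08 (-0.68 to 0.89) and 1.22 (0.41 to 2.10). The doublet score of the deep cell was 0.0819, not among the highest 5% of its library, and whether it holds more than 1 cell was not tested.

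Only Upk3b passed the count filter of the edgeR fit in fibroblast-like cells, where 13 of 9351 genes were called (0.139%). It was not called (log2 -0.64, SE 0.855, adjusted p = 0.977 in edgeR), and its unadjusted p was above 0.05, a level under which 6.13% of genes lay. Its counting intervals lay on opposite sides of 0 at the 2 stages. Of all genes tested 2.21% had both intervals above 0 and 1.92% both below, and the other 9 genes described here were not among those tested. Among 22 fibroblast genes 20 were tested and 1 was called, higher in Lats1/2 CKO: Dpp4, a surface peptidase gene, stood at 227 and 287 CPM in Lats1/2 CKO E13.5 and E14.5, against 55.8 and 43.4 CPM in controls (log2 2.38, SE 0.251, adjusted p = 0.0102). Mfap5, a microfibril gene, had log2 ratios of 2.20 (0.69 to 4.76) and 3.30 (1.54 to 6.73) at the 2 stages and was not called (log2 2.93, SE 0.669, adjusted p = 0.341 in edgeR). Pdgfra, a growth factor receptor gene of the list, stood at 195 and 148 CPM in Lats1/2 CKO, against 355 and 246 CPM in controls (log2 -0.77, SE 0.199, adjusted p = 0.462 in edgeR). At an unadjusted p under 0.05 there were 6 higher and 4 lower genes of the list. A class by genotype term with library as a block asked whether the genotype effect differed between fibroblast-like and epicardial-like cells. It passed for 22 of 10100 genes (0.218%) and 0 of the 10. Upk1b alone had an unadjusted p under 0.05, as 6.93% of genes did (log2 1.81, SE 0.798, adjusted p = 0.629 in edgeR).

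Levels in other cell classes may hold free RNA, doublets and true expression, which were not told apart. The sum of the 10 members in cardiomyocyte-like cells was 165 CPM in Lats1/2 CKO E13.5, 99.6 in control E13.5, 92.2 in Lats1/2 CKO E14.5 and 102 in control E14.5. Krt19 made up 55.7 to 120 CPM and Krt18 19.5 to 32.2 CPM of this, whereas Upk3b stood at 1.89 to 5.63 CPM. Krt19 in cardiomyocyte-like cells stood at 120 CPM in Lats1/2 CKO E13.5 and 58.1 CPM in control E13.5, a log2 ratio of 1.04 (0.85 to 1.25), and at 55.7 CPM in Lats1/2 CKO E14.5 and 58.6 CPM in control E14.5 (-0.07, -0.32 to 0.17). In endocardial-like cells Krt19 had 22 UMIs in Lats1/2 CKO E13.5 and 0 in control E13.5. The E13.5 difference in Krt19 was thus also seen outside epicardial-like cells. Fibroblast-like cells differed from cardiomyocyte-like cells in that Upk3b (8.68 to 50.7 CPM) was higher and Krt18 (3.81 to 10.1 CPM) lower in every library. In mural-like cells, which cover pericytes and smooth muscle, the sum stood at 84.2 and 80.8 CPM in Lats1/2 CKO E13.5 and E14.5, against 42.8 and 109 CPM in controls. Krt19 was not higher in mural-like cells of Lats1/2 CKO E13.5 (6.14 CPM) than in those of control E13.5 (9.37 CPM), on 7 UMIs each. Pooled over libraries, the 4 fibroblast-like values lay within the range of classes outside the epicardium (11.7 to 165 CPM). The lowest value, in macrophage-like cells of control E13.5, rested on 2 UMIs. Within Lats1/2 CKO E14.5, fibroblast-like cells were the highest of these classes, at 103 CPM (exact Poisson interval 77.5 to 133). Cardiomyocyte-like cells followed at 92.2 CPM (84.1 to 101), and the intervals overlapped. In each other library cardiomyocyte-like cells stood above fibroblast-like cells. No test of these differences was made.

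**Figure D3:**
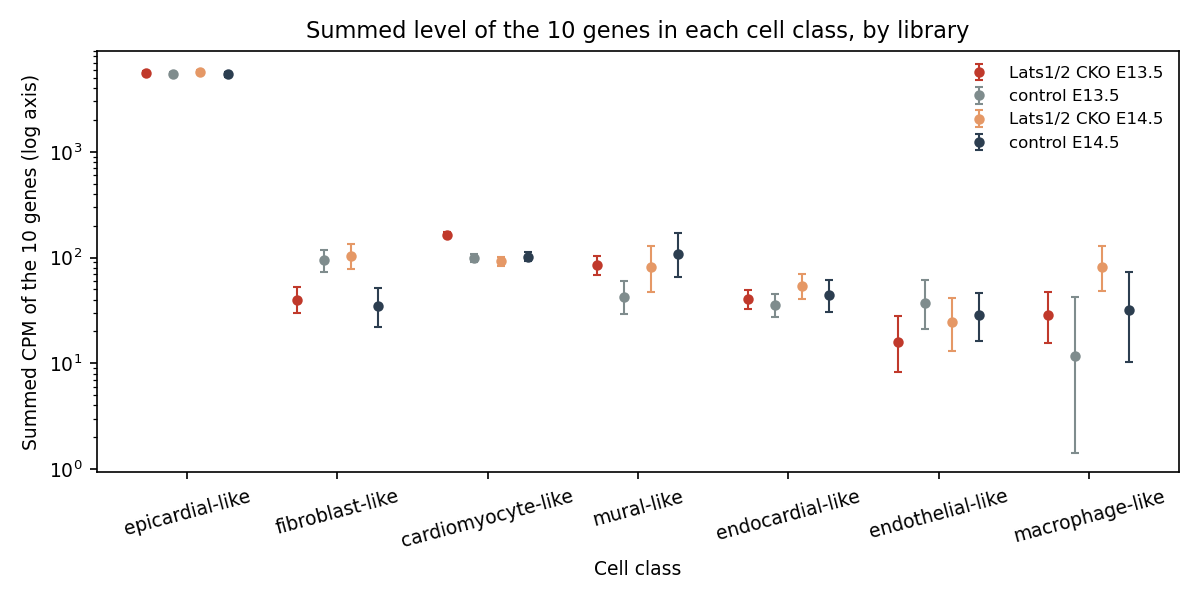
Summed CPM of the 10 genes in 7 cell classes on a log axis; each point is 1 library and bars are exact Poisson 95% intervals. Epicardial-like cells stand at 5401 to 5754 CPM and each other class at 165 CPM or less.

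Per cell the contrast was as sharp. Each cell was thinned to 500 UMIs, since the median depth of epicardial-like cells was 2449, 1729, 1183 and 989 UMIs in Lats1/2 CKO E13.5, control E13.5, Lats1/2 CKO E14.5 and control E14.5. At least 1 member UMI was then seen in 85.7% of Lats1/2 CKO E13.5 epicardial-like cells (191 of 223), against 89.4% (101 of 113) in control E13.5. The shares were 91.3% in Lats1/2 CKO E14.5 and 85.7% in control E14.5. At least 2 of the 10 genes were seen together in 63.2% of cells in Lats1/2 CKO E13.5 and 67.3% in control E13.5, and in 63.5% in Lats1/2 CKO E14.5 and 53.8% in control E14.5. Within each stage the Clopper-Pearson intervals of both genotypes overlapped. They take the cells of 1 library as units, which are not replicates of a genotype, so overlap does not show equal shares.

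Fibroblast-like cells with a UMI of any of the 10 genes made up 1.36% in Lats1/2 CKO E13.5 (6 of 441 cells) and 1.95% in control E13.5 (6 of 307), and 3.62% in Lats1/2 CKO E14.5 (14 of 387) and 2.08% in control E14.5 (10 of 481). In cardiomyocyte-like cells, where the muscle itself may express Krt18 and Krt19, the shares were 6.48% and 3.95% in Lats1/2 CKO E13.5 and E14.5, against 4.27% and 5.14% in controls. In endothelial-like cells, which should lack the keratins and uroplakins though Gpm6a reached 34.9 CPM in control E13.5, they were 0.980% and 1.09% in Lats1/2 CKO, against 0.800% and 1.53% in controls. Median depths before thinning were 985 to 2345 UMIs in fibroblast-like, 1190 to 2893 in cardiomyocyte-like and 1133 to 2150 in endothelial-like cells. Clopper-Pearson intervals of fibroblast-like and endothelial-like shares overlapped in all 4 libraries. On the full counts the classes stood further apart. The sum in endothelial-like cells was 15.8 CPM (exact Poisson upper bound 27.7) in Lats1/2 CKO E13.5, 37.4 (61.7) in control E13.5, 24.5 (41.9) in Lats1/2 CKO E14.5 and 28.5 (46.3) in control E14.5. The lower bounds in fibroblast-like cells were 29.9, 73.7, 77.5 and 22.2 CPM in the same order of libraries. Those lay above the endothelial-like upper bounds in 3 of the 4 libraries and below it in control E14.5, and without its deepest cell control E13.5 stood at 42.1 CPM. After thinning, fibroblast-like cells with 2 or more of the 10 genes numbered 0 and 1 in Lats1/2 CKO E13.5 and E14.5 and 1 and 0 in the controls. On the full counts such cells numbered 6 and 6 in Lats1/2 CKO E13.5 and E14.5 and 6 and 3 in the controls.

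**Figure D4:**
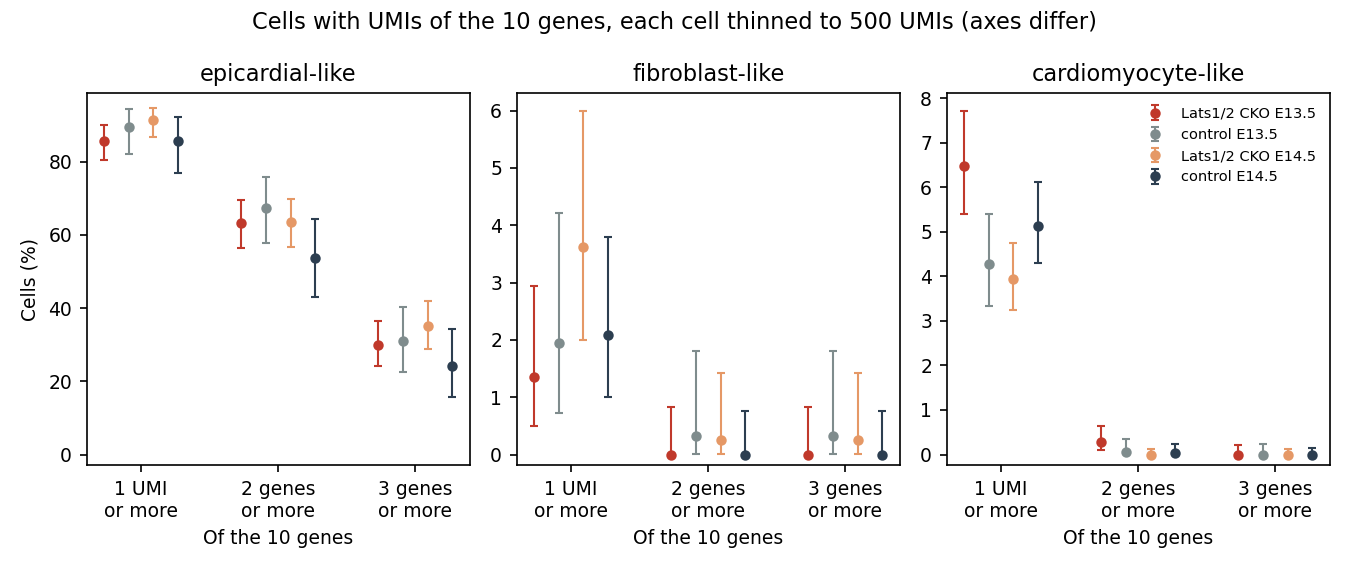
Percentage of cells with at least 1 UMI of the 10 genes, and with at least 2 or 3 of them, after thinning each cell to 500 UMIs; bars are Clopper-Pearson 95% intervals and the axis of each panel has its own scale. Epicardial-like shares with 1 UMI or more run from 85.7% to 91.3%, fibroblast-like ones from 1.36% to 3.62%.

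Cells that carry a fibroblast gene were then taken from the epicardial-like and fibroblast-like classes together. The 4 genes are not confined to fibroblast-like cells, and carriers in further classes were left out. Endocardial-like cells held Mfap5 at 174 to 258 CPM, against 2.89 to 34.8 CPM in fibroblast-like cells, and Dpp4 at 97.7 to 247 CPM. Mural-like cells held Col1a1 at 1070 to 1359 CPM. In thinned epicardial-like cells Col1a1, a fibrillar collagen gene, was seen in 68.6% and 80.4% of Lats1/2 CKO E13.5 and E14.5 cells, against 64.6% and 79.1% in controls. Dpp4 was seen in 22.4% and 17.8% of Lats1/2 CKO cells, against 15.9% and 18.7% of control cells. Tcf21, a transcription factor gene needed for cardiac fibroblasts, was seen in 8.07% and 3.65% of Lats1/2 CKO cells, against 7.08% and 5.49% of control cells.

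Epicardial-like cells that carried a fibroblast gene kept a high level of the 10 genes. After thinning, the sum stood at 5686 CPM in cells with Col1a1 and 5029 CPM in cells without it in Lats1/2 CKO E13.5. In control E13.5 it was 6411 and 4600 CPM, in Lats1/2 CKO E14.5 6670 and 6093 CPM and in control E14.5 5806 and 4000 CPM, with and without Col1a1. Cells with Col1a1 thus stood above cells without it in all 4 libraries. After thinning, the difference between cells with and without Dpp4 was small. The sum was 5480 CPM in both in Lats1/2 CKO E13.5, and 6111 and 5705 CPM in control E13.5. It was 6564 and 6556 CPM in Lats1/2 CKO E14.5 and 5882 and 5324 CPM in control E14.5. On the full counts epicardial-like Dpp4 carriers stood at 5747, 5615, 5290 and 4967 CPM in the same order of libraries. All epicardial-like cells stood at 5635, 5468, 5754 and 5401 CPM, so Dpp4 carriers were lower at E14.5. Epicardial-like Col1a1 carriers stood close to all cells, at 5645, 5482, 5764 and 5420 CPM.

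In thinned cells Tcf21 went the other way from Col1a1. The sum was 4000 CPM in epicardial-like cells with Tcf21 and 5610 CPM in those without it in Lats1/2 CKO E13.5, 5250 and 5810 CPM in control E13.5, 5000 and 6616 CPM in Lats1/2 CKO E14.5 and 3600 and 5535 CPM in control E14.5. After thinning it was lower with Tcf21 in all 4 libraries, on 18, 8, 8 and 5 cells. On the full counts epicardial-like Tcf21 carriers (72, 47, 35 and 14 cells) stood at 5483, 5281, 4764 and 4197 CPM in the same order of libraries. All epicardial-like cells stood at 5635, 5468, 5754 and 5401 CPM, so the difference was small at E13.5. Cells of 1 library are not replicates, and no test was made.

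Among all Tcf21 carriers the sum was 1464 CPM in Lats1/2 CKO E13.5 and 1517 CPM in control E13.5, and 2366 CPM in Lats1/2 CKO E14.5 and 588 CPM in control E14.5. The log2 ratio was -0.05 (-0.15 to 0.05) for E13.5, then 2.01 (1.81 to 2.21) for E14.5. The make-up of the carriers moved with it: 72 of 380 and 35 of 184 carriers were epicardial-like in Lats1/2 CKO E13.5 and E14.5, against 47 of 279 and 14 of 203 in controls. These epicardial-like carriers gave 94.8% to 98.1% of the UMIs of the 10 genes. In fibroblast-like Tcf21 carriers alone the sum stood at 37.3 and 97.2 CPM in Lats1/2 CKO, against 108 and 31.1 CPM in controls.

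Col1a1 carriers followed the same pattern, with 2187 and 2958 CPM in Lats1/2 CKO E13.5 and E14.5, against 1971 and 1263 CPM in controls. The log2 ratios were 0.15 (0.07 to 0.23) and 1.23 (1.12 to 1.33). Of the carriers, 206 of 590 and 205 of 544 were epicardial-like in Lats1/2 CKO, against 102 of 342 and 82 of 441 in controls. In fibroblast-like Col1a1 carriers alone the sum was 41.8 and 106 CPM in Lats1/2 CKO, against 106 and 36.0 CPM in controls.

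Dpp4 carriers held the highest level of the 3 larger sets in every library, with 3197 and 3545 CPM in Lats1/2 CKO E13.5 and E14.5, against 4288 and 3650 CPM in controls. Here 147 of 272 and 92 of 182 carriers were epicardial-like in Lats1/2 CKO, against 63 of 94 and 31 of 54 in controls. The log2 ratio was -0.42 (-0.51 to -0.34) for E13.5, then -0.04 (-0.18 to 0.10) for E14.5. In fibroblast-like Dpp4 carriers the sum stood at 45.9 and 92.5 CPM in Lats1/2 CKO, against 546 and 75.2 CPM in controls. The control E13.5 cell that held 42 member UMIs is among these carriers and gives most of the 546 CPM. Mfap5 carriers were few, at 35 and 22 cells in Lats1/2 CKO and 7 and 5 cells in controls, of which 17 and 7 against 4 and 3 were epicardial-like. Their sum was 5176 and 3069 CPM in Lats1/2 CKO, against 5684 and 3820 CPM in controls, and no ratio was taken on fewer than 10 control cells.

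**Figure D5:**
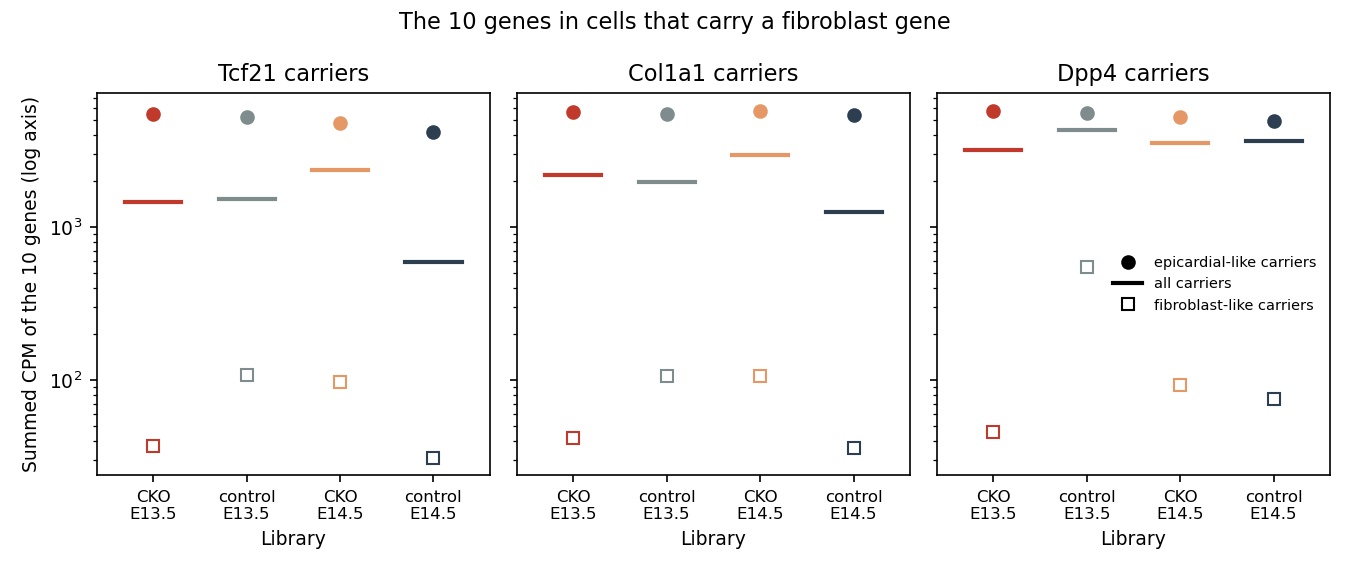
Summed CPM of the 10 genes on a log axis in cells with at least 1 UMI of Tcf21, Col1a1 or Dpp4, by library; circles are the epicardial-like carriers, open squares the fibroblast-like carriers and bars all carriers. Epicardial-like carriers lie between 4197 and 5764 CPM in each panel, and fibroblast-like carriers between 31.1 and 108 CPM except for Dpp4 carriers of control E13.5 at 546 CPM, most of it from 1 cell with 42 member UMIs.

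Recombined cells were approached through the reporter, though an Egfp UMI may not mark them cleanly. Egfp also stood at 11.6 to 23.8 CPM in cardiomyocyte-like cells, and a UMI is more readily seen in deep cells. In Lats1/2 CKO E14.5 epicardial-like cells, 84 cells with an Egfp UMI held 338045 UMIs and 135 cells without one held 181085. In epicardial-like cells with an Egfp UMI the sum of the 10 members was 5504 CPM in Lats1/2 CKO E13.5 (98 cells) and 5499 CPM in Lats1/2 CKO E14.5 (84 cells). In those without one it was 5801 and 6229 CPM. Control epicardial-like cells with an Egfp UMI were 12 and 5, with sums of 5419 and 4524 CPM, against 5488 and 5600 CPM without one. In fibroblast-like cells with an Egfp UMI the sum was 43.8 CPM in Lats1/2 CKO E13.5 (9 UMIs in 67 cells). In Lats1/2 CKO E14.5 it was 259 CPM (22 UMIs in 43 cells). Those without an Egfp UMI stood at 39.4 and 73.7 CPM. Single cells may weigh on the 259 CPM. Of the 56 member UMIs in Lats1/2 CKO E14.5 fibroblast-like cells, the top cell held 10 and the next 9. Whether those cells had an Egfp UMI or were doublets was not tested. Control fibroblast-like cells with an Egfp UMI numbered 20 at E13.5 (66.6 CPM on 5 UMIs) and 13 at E14.5 (0 of 43185 UMIs, which allows up to 69.5 CPM).

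Genes with the most similar pattern were ranked by Pearson correlation of log2(CPM + 10) with the mean of the 10 genes over 31 sums of class and library, among 5541 genes of at least 50 CPM in an epicardial-like sum. The sums share their libraries and the class drives the values, so r is a description only. Rspo1 (r = 0.986) came first, then Crb2 (0.985), an apical polarity gene, Ppl (0.983), whose product periplakin ties keratin filaments to junctions, and Bnc1 (0.982). Cst9, Cyp2s1, Lrp2, Tmem151a, Ildr2 and Lrrtm1 completed the 10 nearest, down to 0.969. Among the 9 of the 10 genes that reached 50 CPM, all but Muc16, r was highest for Upk1b (0.990) and Msln (0.988) and lowest for Krt19 (0.895), which was also found in cardiomyocyte-like cells. The mean holds each of these 9 genes, which raises their r, so it is not comparable with that of the other genes. Rspo1 and Bnc1 were also naming markers.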

How the data were processed

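The authors deposited 1 merged table of whole UMI counts, 30268 genes in 24849 cells, not normalized. Per the submitters' processing notes reads were handled with STAR and Picard on mm10; versions and counting settings are not given in the sources used here. Cell names carry stage and genotype, and 0 cell columns were left unused.

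Filters of 500 UMIs and 300 genes as minima and 20% mitochondrial UMIs as maximum removed 8, 21, 1799 and 1536 cells (Lats1/2 CKO E13.5, control E13.5, Lats1/2 CKO E14.5, control E14.5), among them 0, 7, 2 and 1 doublets called by Scrublet; so few calls mean that doublets were hardly removed. The 4 libraries were clustered jointly in scanpy 1.11.5 (3106 variable genes, 30 principal components, 15 neighbours, Leiden resolution 1.0) without the 10 genes, cell cycle, haemoglobin, mitochondrial, sex-linked and transgene transcripts. A cluster was named where at least 3 markers exceeded the other cells by 0.5 on the log2 scale with 10 CPM added, unless another class had more markers among its 10 leading genes. These naming thresholds were set after clusters were seen.

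Counts were summed per class and library. CPM, exact Poisson and conditional binomial intervals at 95% (prior 0.5 count in ratios) and Clopper-Pearson intervals were computed in scipy 1.17.1; shares used cells thinned to 500 UMIs. PCR duplicates are collapsed by UMIs, and intervals cover counting error only. A count of 0 is given with a limit of 3 counts. Tests used edgeR 4.0.16 quasi-likelihood fits (TMM, filterByExpr, Benjamini-Hochberg at 0.05) with DESeq2 1.42.0 as an alternative; SE is the absolute log2 value over the square root of F. The 1 residual degree of freedom measures how the genotype effect changes with stage. On simulated counts of the epicardial-like design at dispersion 0.05, 66% of 4-fold and 7% of 2-fold changes were recovered over 7666 genes; the common dispersion was 0.0422. Nothing says whether each library came from 1 or several hearts.

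Named genes were the 10 genes, the 4 carrier genes, the 10 nearest in pattern and, from 5 lists, called genes and up to 4 others with the same direction at both stages and at least 20 UMIs in each stage; of these the text gives a selection. The genes, lists and tests were chosen with earlier results of these data known. Promoters come from RefSeq (GRCm38.p6), gene overlaps from GENCODE M21 (GRCm38).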

Additional observations from a re-analysis of the deposited data

Results flagged for a closer look

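In fibroblast-like cells the sum of the 10 genes moved in opposite directions at the 2 stages, with a log2 ratio of Lats1/2 CKO over control of -1.22 (E13.5) against 1.55 (E14.5). The same held for Upk3b alone, with -2.41 (E13.5) against 1.68 (E14.5). Upk3b had 12 and 16 UMIs in Lats1/2 CKO E13.5 and E14.5, against 40 and 6 in the controls. The difference between the stages was not tested, because each genotype and stage has 1 library. In control E13.5 a single cell held 42 of the 74 UMIs behind the sum, and without the top cell of each library the sum stood at -0.25 for E13.5, then 1.40 for E14.5.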

How the results depend on the processing

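No paired analysis was possible because the labels give no replicate numbers and each genotype and stage has 1 library; stage, or the library in the class by genotype fit, entered as a term. Leaving a library out leaves no residual degree of freedom, so single stages are values with no test. In epicardial-like cells the genotype fit called 14 genes, against 96 without the count filter, 1 without a stage term, 3 at resolution 2.0, 9 with the 10 genes kept in the clustering and 7 without the 5% highest doublet scores; without the filter 2 of the 10 genes passed. In fibroblast-like cells 13 genes became 0 without the filter (530 at an unadjusted p under 0.05 in edgeR, 10 called by DESeq2), and 1 without a stage term or without the highest doublet scores. For class by genotype 22 became 36 without the filter, 2 in DESeq2, 50 at resolution 0.5, 44 with the 10 genes clustered and 46 without the highest doublet scores. The stage effect called 49 genes in DESeq2 and 57 at resolution 2.0, with 1 of the 10 genes (Msln) passing under RLE size factors and without the filter, against 90 genes and 0 of the 10.

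The summed log2 ratio in epicardial-like cells at E14.5 was 0.22 and 0.29 without the 1 or the 2 cells with most member UMIs in each library, alternatives chosen after seeing the data. In fibroblast-like cells at E13.5 it was -0.68 at resolution 2.0, -0.68 without the highest doublet scores, and -0.25 and 0.08 without those 1 or 2 cells. In fibroblast-like carriers alone it was -1.53 and 1.61 (Tcf21, E13.5 and E14.5), -1.34 and 1.54 (Col1a1), -3.56 and 0.12 (Dpp4), and -1.65 at E13.5 with at least 2 of the 4 carrier genes. With 2 UMIs required of a carrier gene it was -0.26 and 2.68 (Tcf21), 1.09 at E14.5 (Col1a1), and 0.26 and 0.86 with at least 2 of the carrier genes. Epicardial-like cells with at least 2 of the 10 genes were 83.2%, 85.7%, 91.3% and 88.9% when thinned to 1000 UMIs and 94.6%, 97.3%, 89.0% and 79.1% unthinned (Lats1/2 CKO E13.5, control E13.5, Lats1/2 CKO E14.5, control E14.5); unthinned fibroblast-like shares were 1.36%, 1.95%, 1.55% and 0.624%. Direction was kept for Krt8 (1.74 to 2.04, adjusted p 0.00302 to 1 over edgeR and DESeq2 fits) and Krt19 (0.88 to 0.99, adjusted p 0.0127 to 1) over 9 alternatives. At resolution 2.0 and at 1000 UMIs per cell the E14.5 fibroblast-like cluster stayed unnamed, so no E14.5 or class by genotype value exists there. The cause of these shifts was not tested. Depth limits Muc16 throughout and each of the 10 genes in fibroblast-like cells.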
